A study of Mus musculus with 36 samples.

Results

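Hippocampal slices from T41B mice were compared with slices from wild-type (WT) mice, all of them treated with BD10-2 and all of them given the sham procedure. T41B mice carry human APP with the London and Swedish mutations in a Thy1 cassette (line 41), a model of amyloid deposition in which the cassette directs expression mainly to neurons, and the WT mice were C57BL/6. BD10-2, which the study's title calls a TrkB and TrkC partial agonist, was given by gavage from 13 months of age, and slices were taken 3 months later, at 16 months. The sham slices of the right hippocampus went through the recording procedure without theta-burst stimulation and were frozen at its end. Libraries were selected by their treatment and stimulation labels, and libraries with the same mouse and stimulation labels were added, which gave 10 of the 36 libraries of the series and 8 of its 18 mice. The T41B group held 5 mice from 6 libraries and the WT group 3 mice from 4 libraries, and no mouse was in both groups. The libraries were made from total RNA depleted of ribosomal RNA, so they also hold unspliced transcripts. The sex of the mice is not given in the sources used here.

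Plaques in APP transgenic brain are surrounded by microglia, the resident macrophages of brain tissue. These cells take up amyloid and lipid through receptors such as Trem2, which signals through the adaptor Tyrobp. Around the same deposits astrocytes enlarge and raise intermediate filaments such as Gfap, while activated microglia release complement, cytokines and chemokines and can present antigen on MHC molecules. Inhibitory interneurons of the hippocampus make GABA with the enzymes Gad1 and Gad2, and one large class of them releases the peptide somatostatin (Sst).

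Total expected counts per library ran from 11597555 to 28125842, mitochondrial genes took 2 to 4.38% of them, and the 10 most abundant genes took 13.6 to 17.2%. Levels are given as counts-per-million (CPM), the rounded count scaled to the library size after TMM normalization, and they compare mice, not genes of different length. A gene was called where edgeR's quasi-likelihood F test gave a Benjamini-Hochberg adjusted p under 0.05 over the 19478 genes tested, and this value is written as the edgeR adjusted p. Values per mouse follow a fixed order, Mouse1557, Mouse1570, Mouse1563, Mouse1564 and Mouse1592 for T41B and Mouse1565, Mouse1571 and Mouse1590 for WT. The labels give batches: batch D holds Mouse1592 and Mouse1590, batch I holds Mouse1570, Mouse1565 and Mouse1571, and batches B and H hold T41B mice alone here. Markers of hippocampal principal neurons were present in every mouse, with a summed level of 1580 to 2060 CPM in T41B and 1910 to 2030 CPM in WT. The dentate granule cell marker Prox1 differed within WT, at 188 and 84 CPM in the libraries of Mouse1565, 146 CPM in Mouse1571 and 79.2 CPM in Mouse1590, against 123 to 179 CPM in the T41B libraries. The 2 libraries of Mouse1565 differed from each other in this region marker by more than any pair of T41B libraries did. Over all tested genes, libraries added as 1 mouse were less alike than some libraries of different mice, by a chi-square per degree of freedom that also grows with depth. It was 30.5 between the 2 libraries of Mouse1565, 11.4 between the first of them and Mouse1571 and 8.52 between the second and Mouse1590. Between the 2 libraries of Mouse1557 it was 22.6, against 11.3 between the first and Mouse1564 and 12.5 between the second and Mouse1570. With 1 library per mouse, 901 genes were higher and 346 lower using the first libraries, and 643 and 149 using the last. Fewer or more cells of a type and less or more RNA per cell cannot be told apart in these bulk samples.

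The transgene label was checked through Thy1 (ENSMUSG00000032011, chromosome 9, 44043384 to 44048579, plus strand, GRCm38), since the cassette holds Thy1 sequence. Thy1 was counted at 1040, 2170, 1940, 1520 and 2250 CPM in the T41B mice and at 333, 328 and 374 CPM in the WT mice. Every T41B mouse lay above every WT mouse, with a difference of 5.17-fold (log2 fold change 2.37, SE 0.25, edgeR adjusted p = 2.79e-07). Mouse App was 1110 ± 71.7 CPM in T41B (SD, n = 5) and 1200 ± 29.6 CPM in WT (SD, n = 3), and it was not called (log2 fold change -0.11, SE 0.08, edgeR adjusted p = 0.491). Among 19 genes of APP processing Apoe, Clu and Thy1 rose, where 4.31% of all tested genes were called higher, and the secretase genes Bace1, Psen2, Ncstn and Adam10 had log2 fold changes from -0.1 to 0.11, were not called and were chosen after their values were seen. Clu, a secreted chaperone of lipid and amyloid, was 878 ± 93.5 CPM in T41B against 543 ± 14.7 CPM in WT (log2 fold change 0.69, SE 0.15, edgeR adjusted p = 0.00358).

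Across all genes, 839 were called higher in T41B slices (4.31% of those tested) and 223 lower (1.14%). The changes were lopsided in size as well as in number: 421 of the higher genes had a log2 fold change over 1 and 105 over 2, while 22 of the lower genes passed -1 and 0 passed -2. The median log2 fold change was 1.01 over the higher genes, -0.48 over the lower genes and 0.01 over all genes tested. The 5 T41B mice and 3 WT mice did not overlap for 816 of the 839 higher genes and 211 of the 223 lower genes, where 10.4% of all tested genes had every T41B mouse above every WT mouse and 7.04% had every T41B mouse below. Within batches D and I, each of which holds both genotypes, both differences were positive for 99.3% of the higher genes and both negative for 99.6% of the lower genes, against 32.2% and 31.1% of all genes. The genes were chosen on these same mice, so the separation of the groups and the direction within batches were largely fixed by that choice. Leaving out 1 WT mouse lowered the number of higher genes to 488 (Mouse1565), 543 (Mouse1571) or 429 (Mouse1590). The number of lower genes was 89, 54 and 55 without those 3 WT mice in the same order, 108 without the T41B Mouse1564 and 146 without Mouse1592.

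Most microglial genes on the lists rose. Of 24 genes of plaque-associated microglia, 21 rose and 0 fell, with a median log2 fold change of 2.05, and 15 of 16 pan-myeloid genes and 10 of 15 homeostatic microglial genes rose as well, with medians of 1.42 and 0.89. Cst7 (ENSMUSG00000068129, chromosome 2, 150570415 to 150578944, plus strand), which encodes the cathepsin inhibitor cystatin F, rose from near absence. It was counted at 28.3, 20.4, 48.7, 33.8 and 38.1 CPM in T41B and at 0.256, 0.209 and 0.271 CPM in WT. The groups lay far apart, 134-fold on average (log2 fold change 7.06, SE 0.52, edgeR adjusted p = 7.33e-10). Itgax, the integrin CD11c, was 10.6, 8.91, 19.6, 15.8 and 18.9 CPM in T41B and 0.492, 0.835 and 0.217 CPM in WT (log2 fold change 4.84, SE 0.39, edgeR adjusted p = 3.62e-09). Trem2, the lipid and amyloid receptor (ENSMUSG00000023992, chromosome 17, 48346401 to 48354147, plus strand), stood at 36.3, 40, 52.3, 46.2 and 53.9 CPM against 8.66, 7.26 and 7.04 CPM, a 5.92-fold difference (log2 fold change 2.57, SE 0.27, edgeR adjusted p = 4.18e-07). In all 3 genes the lowest T41B mouse was above the highest WT mouse. Clec7a, the beta-glucan receptor Dectin-1, and Spp1, the matrix protein osteopontin, rose by 4.11 (SE 0.42) and 3.36 (SE 0.48) on the log2 scale. Uncalled in this list were Lpl, Fth1 and Timp2, named here after their values were seen, with log2 fold changes of 0.29, 0.48 and 0.29.

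The genes that mark microglia at rest rose too, by less. Olfml3, a secreted microglial protein, was 39.7, 32.5, 55.6, 43.9 and 49.8 CPM in T41B and 15.7, 15.8 and 13.9 CPM in WT (log2 fold change 1.55, SE 0.19, edgeR adjusted p = 4.11e-06). Cx3cr1, the fractalkine receptor, was 93.1 ± 16.6 CPM against 40.9 ± 1 CPM (log2 fold change 1.19, SE 0.23). Neither gene had overlapping groups. P2ry12, the purine receptor of resting microglial processes, was 29.3, 20.8, 39.1, 25.4 and 30.1 CPM in T41B and 21.5, 28.9 and 16 CPM in WT. Those ranges overlapped, and P2ry12 was not called (log2 fold change 0.39, SE 0.23, edgeR adjusted p = 0.364). The other uncalled homeostatic genes were Tmem119, Gpr34, Sparc and Slc2a5, at log2 fold changes of 0.85, 0.66, 0.58 and 0.8. These names fall outside the naming rule and were chosen after their values were seen. Summed over the list, homeostatic genes stood at 1630 to 2080 CPM in T41B against 960 to 1080 CPM in WT, and pan-myeloid genes at 590 to 816 CPM against 209 to 262 CPM, so markers shared by all microglia moved with every microglial group described here. How much of each gene's rise goes with more microglial RNA in the slice was not tested.

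**Figure D1:**
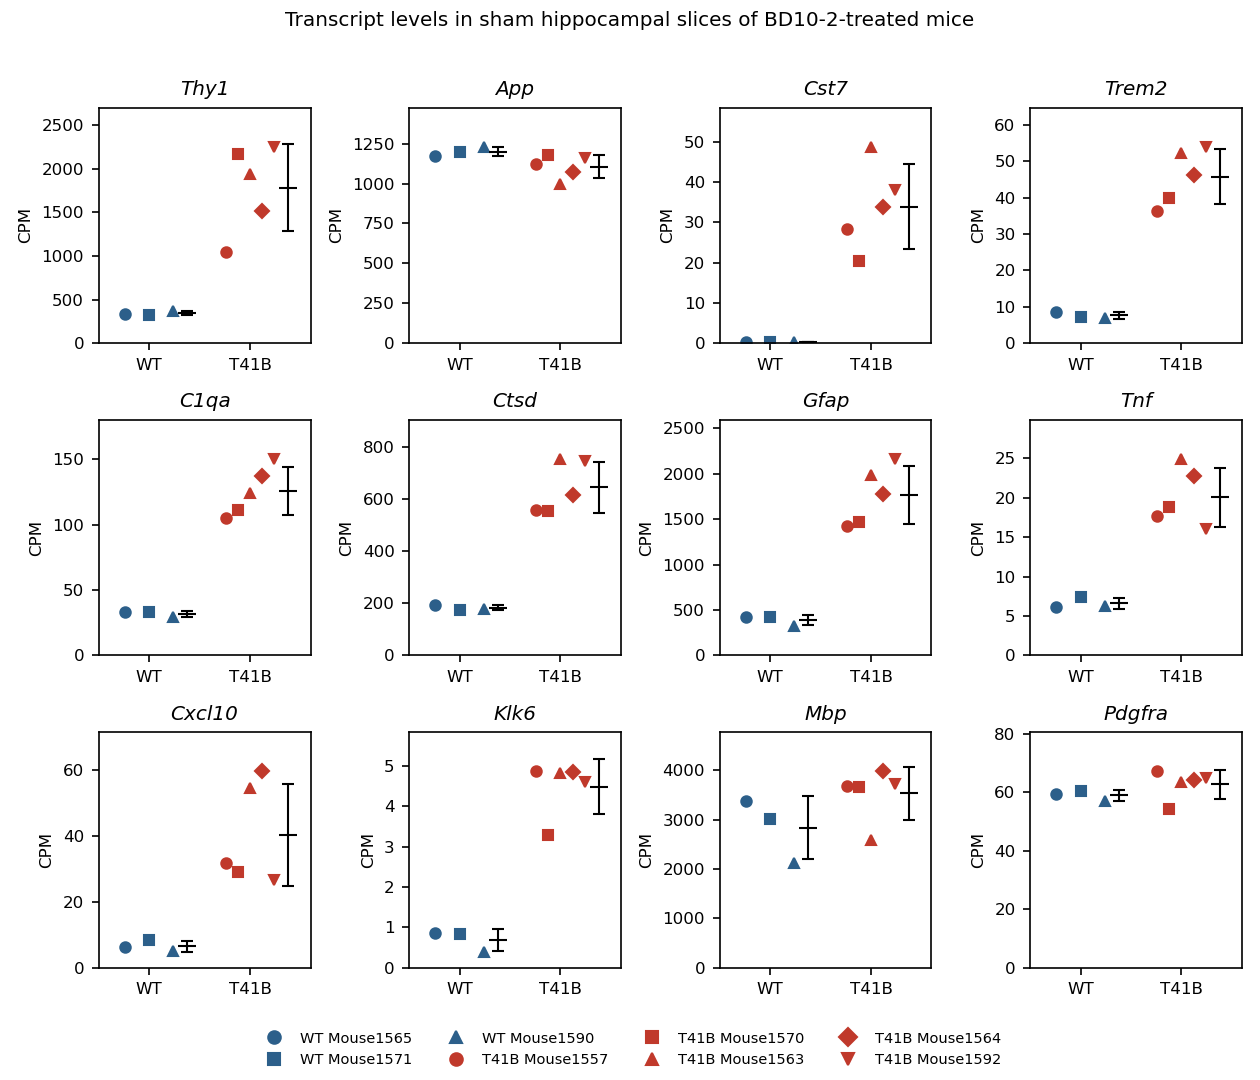
Level of 12 transcripts in CPM (vertical axes, from 0) in each mouse, WT in blue and T41B in red, 1 marker shape per mouse. Bars at the right of each group are the mean and SD. Thy1, Cst7, Trem2, C1qa, Ctsd, Gfap, Tnf, Cxcl10 and Klk6 have no overlap between the groups, whereas App, Mbp and Pdgfra were not called.

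Few markers of other immune cells were called. None of 10 monocyte and neutrophil genes passed the filter on low counts. Of 6 tested genes of border-associated macrophages 0 were called, although their sum was 19.8 to 25.9 CPM in T41B and 15.1 to 18.6 CPM in WT, without overlap. Mrc1, their mannose receptor, was 1.91, 2.31, 1.66, 1.68 and 1.8 CPM in T41B and 1.22, 1.1 and 2.38 CPM in WT, overlapping ranges. Stab1, of the same list, was 16, 21.8, 19.7, 18.4 and 18.5 CPM in T41B and 14.8, 12.6 and 13.7 CPM in WT, without overlap (log2 fold change 0.45, SE 0.2, edgeR adjusted p = 0.199). The 7 tested T and NK cell genes were all uncalled, their sum reaching 2.56 to 3.99 CPM in T41B and 1.71 to 2.22 CPM in WT and their median log2 fold change being 2. Lck, a T cell kinase, was 0.97 ± 0.279 CPM against 0.922 ± 0.0459 CPM (log2 fold change 0.07, SE 0.35, edgeR adjusted p = 0.935). Of 5 tested B cell genes 1 was called, Igkc, the immunoglobulin kappa constant region, and that call came from a single animal. Igkc was counted at 10.1 CPM in Mouse1557 and at 0, 0, 0.0578 and 0.159 CPM in the other T41B mice, against 0, 0.0522 and 0 CPM in WT. The groups overlapped, the gene was not tested once Mouse1557 was left out, and its call was lost without Mouse1565, Mouse1571 or Mouse1590 (log2 fold change 6.1 to 8.57 over the mice left out), with batch as a covariate (0.9) and with the last library of each mouse (3.79). Ighm, the heavy chain of IgM, was not called at 26.5, 13.9, 20.4, 14.3 and 22.6 CPM in T41B and 11.6, 5.95 and 5.41 CPM in WT, although the groups did not overlap (log2 fold change 1.33, SE 0.43, edgeR adjusted p = 0.0626), and it was called under vehicle. The part of these cells in the other results was not tested.

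Complement genes rose together with the receptors that lie upstream of phagocytosis. Of 17 complement genes 11 rose and 0 fell (median log2 fold change 1.29). The 3 chains of C1q, the recognition molecule that starts the classical pathway, are encoded side by side on chromosome 4 and rose to a like extent. C1qa was 105, 111, 124, 137 and 150 CPM in T41B and 33.2, 32.9 and 29 CPM in WT (log2 fold change 1.98, SE 0.24, edgeR adjusted p = 2.17e-06), with C1qb at 1.82 (SE 0.22) and C1qc at 1.96 (SE 0.23). C4b, the next component of the cascade, was 391, 428, 469, 426 and 544 CPM in T41B and 112, 130 and 107 CPM in WT (log2 fold change 1.96, SE 0.22, edgeR adjusted p = 6.59e-07). C3, on which both pathways converge, was 11.2 ± 2.14 CPM against 3.04 ± 0.85 CPM (log2 fold change 1.85, SE 0.36, edgeR adjusted p = 0.00143). In none of these genes did a T41B mouse fall into the WT range.

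Of 18 tested genes of Fc receptors and ITAM signalling 16 rose and 0 fell (median log2 fold change 1.34). Tyrobp, the adaptor of Trem2, was 34.5, 30.3, 42.1, 43.2 and 47.9 CPM in T41B and 8.76, 8.56 and 7.58 CPM in WT (log2 fold change 2.25, SE 0.27, edgeR adjusted p = 2.68e-06). Fcgr2b, the inhibitory IgG receptor, had a log2 fold change of 2.64 (SE 0.31), and Ptpn6, the phosphatase SHP-1 recruited by inhibitory receptors, one of 1.79 (SE 0.24). The activating receptors Fcgr1 and Fcgr4 were not called, at 1.3 and 1.62, and were named after their values were seen. Reads of the similar Fcgr genes may be divided with error. Among 14 tested Toll-like receptor genes 6 rose. Tlr2, a receptor for lipopeptides, was 28.2, 24.2, 41.5, 36.1 and 29.6 CPM in T41B and 5.39, 7.05 and 2.71 CPM in WT, a 6.27-fold difference (log2 fold change 2.65, SE 0.3, edgeR adjusted p = 1.2e-06). Tlr1, its partner, rose (log2 fold change 2.03, SE 0.39), as did the nucleic acid receptors Tlr9 (1.01, SE 0.21) and Tlr13 (1.29, SE 0.33) and their chaperone Unc93b1 (1.29, SE 0.21). The call of Tlr13 was lost without Mouse1571 or Mouse1590, where its log2 fold change stayed between 1.15 and 1.45.

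Signalling genes downstream of these receptors rose in the same slices. Of 19 genes of the NF-kappaB and STAT3 pathways 15 rose and 0 fell (median log2 fold change 0.8), and the count was 8 without Mouse1590. They include both transcription factor subunits and the inhibitors that NF-kappaB induces. Nfkbia, the inhibitor that holds NF-kappaB in the cytoplasm, was 106, 113, 133, 144 and 125 CPM in T41B and 55.6, 53.1 and 51.5 CPM in WT (log2 fold change 1.21, SE 0.15, edgeR adjusted p = 4.11e-06). Tnfaip3, the deubiquitinase A20 that shuts the pathway off, was 69.9 ± 9.62 CPM against 28.7 ± 1.34 CPM (log2 fold change 1.28, SE 0.2), and Socs3, the feedback inhibitor of STAT3, was 149 ± 23.9 CPM against 68.1 ± 0.813 CPM (log2 fold change 1.13, SE 0.19). Bcl3, an atypical IkappaB protein, had the largest log2 fold change of the list, at 1.74 (SE 0.26). In the TGF-beta pathway 5 of 19 genes rose, among them the ligand Tgfb1 (log2 fold change 1.18, SE 0.17) and its receptor Tgfbr2. Tgfbr2 was 33.7, 38.7, 37.5, 36.8 and 48.2 CPM in T41B and 14.1, 14.5 and 12.1 CPM in WT (log2 fold change 1.52, SE 0.13, edgeR adjusted p = 2.44e-08). The TGF-beta count was 3 without Mouse1565 or without Mouse1590.

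Part of the cytokine and chemokine genes rose in T41B slices. Of 17 tested cytokine genes 9 rose, and of 21 tested chemokine and receptor genes 10 rose, with 0 lower in either list and medians of 1.11 and 1.23. Tnf was 17.7, 18.8, 24.9, 22.8 and 16 CPM in T41B and 6.18, 7.41 and 6.28 CPM in WT (log2 fold change 1.6, SE 0.33, edgeR adjusted p = 0.00222). Cxcl10, a chemokine for T cells induced by interferon, was 31.8, 29, 54.5, 59.7 and 26.5 CPM in T41B and 6.26, 8.25 and 4.98 CPM in WT (log2 fold change 2.64, SE 0.42, edgeR adjusted p = 0.00013). Both genes kept the groups apart, and for Cxcl10 the batch H mice, Mouse1563 and Mouse1564, stood above the other T41B mice. Il6 spread widely within T41B, at 2.45, 1.9, 7.52, 3.64 and 1.59 CPM against 0.866, 0.887 and 0.65 CPM in WT (log2 fold change 2.06, SE 0.55, edgeR adjusted p = 0.0234). Lif, a cytokine of the same family, was 7.91, 8.91, 25.6, 12.7 and 5.03 CPM in T41B and 3.48, 5.06 and 2.27 CPM in WT, and its groups overlapped (log2 fold change 1.74, SE 0.41, edgeR adjusted p = 0.00906). Ccl3 and Ccl4, chemokines of activated microglia, were 64.9 ± 25.4 against 20.6 ± 10.5 CPM and 19.3 ± 8.44 against 5.33 ± 3.22 CPM. The calls of Lif, Ccl3 and Ccl4 were lost without Mouse1565 or Mouse1590, and that of Il6 without any WT mouse, without Mouse1563 or with the first library of each mouse alone (log2 fold changes 1.25 to 2 for Lif, 1.32 to 2.01 for Ccl3, 1.47 to 2.19 for Ccl4 and 1.56 to 2.23 for Il6 over the mice left out). The cytokine count was 5 without Mouse1565 and 4 without Mouse1590, and the chemokine count 4 without Mouse1565, 6 without Mouse1571 and 5 without Mouse1590.

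**Figure D2:**
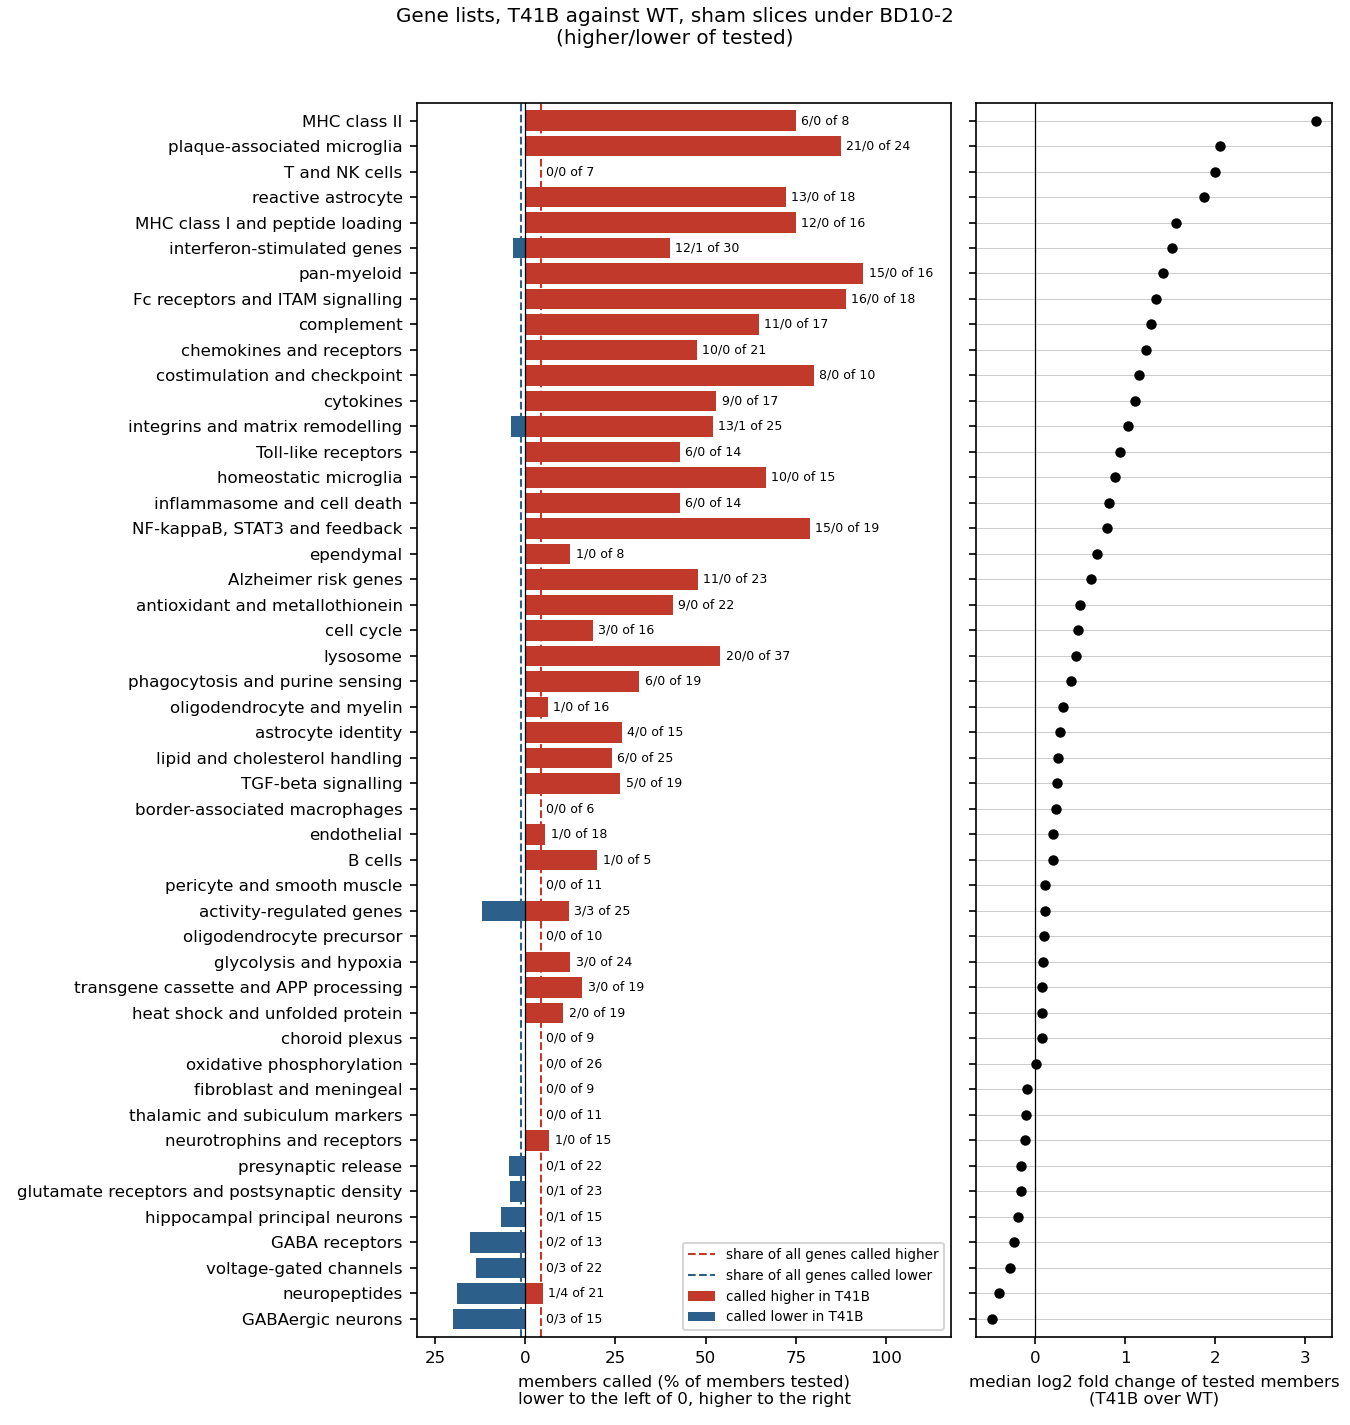
Share of the tested members of each gene list called higher (red, to the right) or lower (blue, to the left) in T41B, in percent, with the numbers beside the bars (left panel), and the median log2 fold change of the tested members (right panel). Dashed lines mark the shares over all genes, 4.31% higher and 1.14% lower. Myeloid, complement, Fc receptor and MHC lists lie far right of the dashed line, with 15 of 16 pan-myeloid genes called, and GABAergic neurons have the lowest median, -0.48.

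Antigen presentation genes of both MHC classes rose. Of 8 MHC class II genes 6 were called (median log2 fold change 3.12), and of 16 genes of MHC class I and peptide loading 12 were (median 1.56), 7 without Mouse1565. H2-Aa, the alpha chain of the class II molecule I-A (ENSMUSG00000036594, chromosome 17, 34282744 to 34287823, minus strand), was 3.81, 7.59, 8.4, 23.4 and 7.68 CPM in T41B and 0.0394, 0.104 and 1.14 CPM in WT. The groups did not overlap, but each held 1 mouse well above its group, Mouse1564 in T41B and Mouse1590 in WT (log2 fold change 4.96, SE 0.97, edgeR adjusted p = 0.00143). Cd74, the invariant chain that escorts class II molecules, was 18.8, 32.7, 36.3, 113 and 39.9 CPM against 1.79, 1.72 and 4.65 CPM, an 18.6-fold difference (log2 fold change 4.22, SE 0.74, edgeR adjusted p = 0.000431). The beta chains H2-Ab1 and H2-Eb1 rose as well, by 4.11 (SE 0.85) and 4.13 (SE 0.92) on the log2 scale. These sizes turned on single mice: over the mice left out, the log2 fold change ran from 4.03 to 7.29 for H2-Aa, 3.37 to 5.69 for H2-Ab1, 3.62 to 5.04 for H2-Eb1 and 3.62 to 4.75 for Cd74, with the top of each range reached without Mouse1590, and H2-Eb1 was not called without Mouse1565. Ciita, the transactivator of class II genes, was not called, at 0.165 to 0.52 CPM in T41B and 0.0522 to 0.271 CPM in WT (log2 fold change 0.59, SE 0.71, edgeR adjusted p = 0.695), nor was H2-DMa (0.48, SE 0.17), and both were named after their values were seen.

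Class I genes changed less steeply and more evenly. H2-D1, a classical class I heavy chain, was 90.5, 128, 101, 195 and 141 CPM in T41B and 33.7, 33 and 32.5 CPM in WT (log2 fold change 1.98, SE 0.31, edgeR adjusted p = 7.6e-05). Psmb8, a subunit of the immunoproteasome that cuts peptides for class I loading, was 8.78 ± 1.42 CPM against 2.7 ± 0.432 CPM (log2 fold change 1.71, SE 0.32), and its partner Psmb9 was 2.13 ± 0.677 CPM against 0.521 ± 0.0443 CPM (log2 fold change 1.98, SE 0.45). Psmb9 was not called without Mouse1565, at a log2 fold change between 1.85 and 2.1 over the mice left out. H2-Q4, H2-Q6 and H2-Q7, which sit in 1 cluster of near copies on chromosome 17, rose by 1.78 (SE 0.34), 2.56 (SE 0.42) and 2.23 (SE 0.4), and how reads were divided among them is uncertain. Mouse1564 was the highest T41B mouse in 6 of the 6 called class II genes and in 9 of the 12 called class I genes, where it was the highest in 26.7% of all higher genes. Of 10 tested genes for costimulation and checkpoint 8 rose, led by Cd72, an inhibitory receptor of the lectin family (log2 fold change 2.04, SE 0.38), and Lag3, a ligand-binding checkpoint receptor (1.82, SE 0.24). That count was 5 without Mouse1565 or Mouse1563, 4 without Mouse1564 and 3 without Mouse1590.

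The class II genes share a promoter element, the Y box bound by the factor NF-Y, and 2 of their promoters are shown because their genes rose steeply and the windows hold that element. Promoter windows, from 250 bases before to 50 bases after the start, came from RefSeq (GRCm38.p6), and the element was searched as CTGATTGG on both strands. It is in capitals in these lines, which read 5′ to 3′ along the gene.
H2-Aa, chr17:34287774-34288073, minus strand: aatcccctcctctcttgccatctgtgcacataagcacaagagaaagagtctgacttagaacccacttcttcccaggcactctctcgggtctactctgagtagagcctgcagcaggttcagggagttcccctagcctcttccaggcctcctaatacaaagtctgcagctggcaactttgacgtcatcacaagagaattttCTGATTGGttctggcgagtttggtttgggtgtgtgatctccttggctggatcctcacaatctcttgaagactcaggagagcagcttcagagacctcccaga
H2-Eb1, chr17:34305617-34305916, plus strand: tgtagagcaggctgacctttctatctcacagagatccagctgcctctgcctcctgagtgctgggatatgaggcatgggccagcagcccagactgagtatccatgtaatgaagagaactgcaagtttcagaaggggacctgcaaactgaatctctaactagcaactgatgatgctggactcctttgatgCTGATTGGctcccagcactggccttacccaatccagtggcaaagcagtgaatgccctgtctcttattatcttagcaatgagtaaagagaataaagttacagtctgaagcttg
The match began 51 bases before the start of H2-Aa and 62 bases before that of H2-Eb1. It was present in 3 of the 5 class II promoters in the table and in 7 of the 14 class I and loading promoters (50%), against 6.46% of the promoters of tested genes and 6.38% of those of higher genes. A match is a run of letters and does not show that a factor was bound.

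Most interferon-stimulated genes had a positive log2 fold change, and fewer were called when any WT mouse was left out. Of 30 genes 12 rose and 1, Ifi203, fell, the median log2 fold change was 1.52, and 29 of the 30 had a positive value. The 12 became 1 without Mouse1565, 2 without Mouse1571 and 6 without Mouse1590, and 23 when only these 8 mice were fitted. Oasl2, of the oligoadenylate synthetase family, was 7.6, 6.19, 6.74, 8.32 and 12.7 CPM in T41B and 1.12, 1.1 and 2.49 CPM in WT (log2 fold change 2.49, SE 0.59, edgeR adjusted p = 0.00892). Ifit1, which binds foreign RNA, was 6.6, 4.29, 8.66, 9.94 and 6.78 CPM against 1.48, 1.77 and 2.33 CPM (log2 fold change 2.03, SE 0.52, edgeR adjusted p = 0.0158), and the nucleic acid sensor Zbp1 was 0.72 ± 0.211 CPM against 0.101 ± 0.0589 CPM (log2 fold change 3.05, SE 0.79). The groups did not overlap in these genes. None of the 3 was called without Mouse1565, where the log2 fold changes were 2.22 for Oasl2, 1.83 for Ifit1 and 2.39 for Zbp1, and Oasl2 and Ifit1 were not called without Mouse1571 nor Ifit1 and Zbp1 without Mouse1590. Ifi203, a DNA-sensor family member, went the other way, at 2.73, 2.56, 2.49, 1.39 and 2.44 CPM in T41B and 5.88, 6.06 and 6.17 CPM in WT (log2 fold change -1.36, SE 0.38, edgeR adjusted p = 0.0307). Ifi204, a relative, rose, at 2.79 ± 0.748 CPM against 0.444 ± 0.115 CPM (log2 fold change 2.6, SE 0.65), and the 2 genes belong to a cluster of similar copies on chromosome 1 whose reads may be divided with error. The call of Ifi204 was lost without any WT mouse (2.45 to 2.83 over the mice left out). The call of Ifi203 was lost without Mouse1565, Mouse1571, Mouse1590, Mouse1570 or Mouse1564, with log2 fold changes from -1.45 to -1.23 over the mice left out.

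Promoters of Ifit1 and its neighbour Ifit3, which is named after its values were seen, are shown because they carry the interferon response element, searched on both strands as GAAA, any 2 bases and GAAA again, at more than 1 place. Capitals mark its reverse complement in these lines, which come from RefSeq (GRCm38.p6).
Ifit3, chr19:34583279-34583578, plus strand: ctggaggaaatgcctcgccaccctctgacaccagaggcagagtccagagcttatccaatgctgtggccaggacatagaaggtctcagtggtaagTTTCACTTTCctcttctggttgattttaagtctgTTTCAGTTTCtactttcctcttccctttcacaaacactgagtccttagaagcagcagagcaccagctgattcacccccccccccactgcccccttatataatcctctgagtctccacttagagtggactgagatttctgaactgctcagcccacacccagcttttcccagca
Ifit1, chr19:34640639-34640938, plus strand: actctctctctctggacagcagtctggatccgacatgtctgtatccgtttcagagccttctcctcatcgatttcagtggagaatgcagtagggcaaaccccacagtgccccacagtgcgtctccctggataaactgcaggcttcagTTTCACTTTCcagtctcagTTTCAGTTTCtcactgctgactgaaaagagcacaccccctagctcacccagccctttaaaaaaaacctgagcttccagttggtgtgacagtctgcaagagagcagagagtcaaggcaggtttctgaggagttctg
Each promoter held 2 matches. The element was in 15 of the 22 promoters of listed interferon-stimulated genes (68.2%), that of the falling gene Ifi203 included, and in 3.78% of promoters of tested genes, 6.54% of those of higher genes and 7.24% of those of lower genes. Over all higher genes the motif of PU.1, the myeloid factor encoded by Spi1, was the more frequent one: GAGGAAGT stood in 56 of 627 promoters (8.93%), against 3.46% of tested and 0.658% of lower genes. It was in 4 of 15 pan-myeloid promoters (26.7%) but in 1 of 19 promoters of plaque-associated genes (5.26%). The windows of Cst7, Itgax and Clec7a held no match. A part of PU.1 in the rise of these genes was not tested. Spi1 itself was 11.8, 11.7, 15.1, 15.6 and 12.9 CPM in T41B and 6, 5.12 and 3.3 CPM in WT (log2 fold change 1.45, SE 0.24, edgeR adjusted p = 0.00022).

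Of 37 lysosomal genes 20 rose and 0 fell, with a median log2 fold change of 0.45. Ctsd, the aspartic protease cathepsin D, was 557, 552, 752, 615 and 743 CPM in T41B and 193, 174 and 179 CPM in WT (log2 fold change 1.82, SE 0.2, edgeR adjusted p = 6.49e-07), and Ctsz, a cysteine carboxypeptidase, had a log2 fold change of 1.84 (SE 0.21). Atp6v0d2, a proton pump subunit of macrophages and osteoclasts, was 0.335, 0.165, 1.3, 1.1 and 0.53 CPM in T41B and had 0 counts in each WT mouse, which makes it at least 5.43-fold higher against a floor of 3 counts in each WT mouse. Grn, the progranulin gene, was 73 ± 7.87 CPM against 32.5 ± 0.227 CPM (log2 fold change 1.16, SE 0.17). The membrane proteins Lamp2, Npc1 and Scarb2, the enzyme activator Psap and the enzyme Asah1 were not called, at log2 fold changes of 0.25, 0.16, 0.3, 0.13 and 0.11. Those 5 genes were chosen after their values were seen, and summed lysosomal levels were 3940 to 4560 CPM in T41B against 2750 to 2810 CPM in WT. The promoter of Ctsd is shown for the element TCACGTGA, a target of the lysosomal regulator Tfeb, in capitals.
Ctsd, chr7:142387778-142388077, minus strand: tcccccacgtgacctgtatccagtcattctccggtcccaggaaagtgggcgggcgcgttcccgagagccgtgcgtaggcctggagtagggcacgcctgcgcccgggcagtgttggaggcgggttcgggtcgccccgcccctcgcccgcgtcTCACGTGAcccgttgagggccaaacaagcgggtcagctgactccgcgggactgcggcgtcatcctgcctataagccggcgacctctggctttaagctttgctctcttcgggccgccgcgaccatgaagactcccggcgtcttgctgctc
Its match began 99 bases before the start, and 4 of 29 lysosomal promoters (13.8%) held the element, against 1.93% of promoters of tested genes and 1.28% of those of higher genes.

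Genes of the phagocyte oxidase rose and most genes of lipid handling were not called. Cybb, Cyba, Ncf1 and Ncf4, which encode subunits of the phagocyte NADPH oxidase, rose with log2 fold changes of 2.59, 1.76, 1.28 and 1.71. Cybb, its catalytic subunit, was 2.19, 1.65, 1.92, 2.37 and 3.18 CPM in T41B and 0.374, 0.522 and 0.217 CPM in WT (SE 0.51, edgeR adjusted p = 0.00153). Ncf4 was not called without Mouse1565 or Mouse1590 (log2 fold change 1.35 to 2.16 over the mice left out), and the list's 9 calls of 22 became 5 without Mouse1590 and 14 when only the 2 groups were fitted. Of 25 genes of lipid and cholesterol handling 6 rose, among them Apoe, the main lipid carrier of brain, at 1510, 1540, 1470, 1780 and 1860 CPM in T41B and 1050, 1030 and 1110 CPM in WT (log2 fold change 0.62, SE 0.17, edgeR adjusted p = 0.0321). The groups did not overlap, yet its call was lost without any WT mouse, without Mouse1564, without Mouse1592 and with the last library of each mouse alone, at log2 fold changes of 0.56 to 0.65 over the mice left out. Ch25h, which makes 25-hydroxycholesterol, was 4.24 ± 0.824 CPM against 1.43 ± 0.695 CPM (log2 fold change 1.55, SE 0.3). Enzymes of cholesterol synthesis in the list (Hmgcs1, Sqle, Fdft1, Lss and Dhcr7) were not called, at 0.17 to 0.43, and were chosen after their values were seen.

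Few genes of energy metabolism were called. None of 26 genes of oxidative phosphorylation was called in either direction, and their median log2 fold change was 0.01. The mitochondrial transcript mt-Co1, a subunit of cytochrome oxidase, ranged from 8200 to 15400 CPM in T41B and from 11100 to 16100 CPM in WT. Of 24 genes of glycolysis and hypoxia 3 rose: the hexokinases Hk2 (log2 fold change 1.17, SE 0.25) and Hk3 (1.27, SE 0.36) and the lactate exporter Slc16a3 (1.39, SE 0.25). Hk2 was 14.8, 17, 22, 19.2 and 22 CPM in T41B and 8.05, 8.2 and 9.2 CPM in WT, with no overlap. Hk3 was not called without any WT mouse, without Mouse1570 or without Mouse1564, at log2 fold changes of 1.18 to 1.45 over the mice left out. Among 19 genes of heat shock and the unfolded protein response Bag3 and Atf3 rose (0.65, SE 0.19, and 0.71, SE 0.17). Neither was called without any 1 of the 3 WT mice, nor Bag3 without Mouse1570, Mouse1563 or Mouse1564. Over the mice left out the log2 fold changes were 0.52 to 0.74 for Bag3 and 0.6 to 0.76 for Atf3.

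Genes of reactive astrocytes and some general astrocyte markers were higher in T41B slices. Of 18 reactive astrocyte genes 13 rose (median log2 fold change 1.88), and of 15 astrocyte identity genes 4 rose (median 0.27). Of the 15 identity genes 13 had a positive log2 fold change and 8 had every T41B mouse above every WT mouse, where 10.4% of all tested genes did. Gfap, the intermediate filament of reactive astrocytes (ENSMUSG00000020932, chromosome 11, 102887336 to 102900912, minus strand), was 1420, 1470, 1980, 1780 and 2160 CPM in T41B and 418, 419 and 325 CPM in WT, a 4.55-fold difference (log2 fold change 2.18, SE 0.21, edgeR adjusted p = 5.98e-08). Ggta1, a galactosyltransferase, was 12.7, 11.8, 16.5, 12.5 and 15.7 CPM against 3.44, 2.87 and 2.87 CPM (log2 fold change 2.16, SE 0.23, edgeR adjusted p = 4.18e-07). Lcn2, a secreted iron-siderophore carrier, was 2.09 ± 0.683 CPM against 0.341 ± 0.0822 CPM (log2 fold change 2.67, SE 0.47), and the adhesion receptor Cd44 was 18.5 ± 6.52 CPM against 4.18 ± 0.616 CPM (log2 fold change 2.12, SE 0.39). Groups were apart in all of these. The identity genes that rose were Aqp4, a water channel of astrocyte endfeet (0.66, SE 0.19), Sox9, a transcription factor (0.64, SE 0.17), Mlc1, an endfoot membrane protein (0.55, SE 0.14), and Atp1b2, a sodium pump subunit (0.39, SE 0.1). That count was 1 without Mouse1565 or Mouse1571 and 0 without Mouse1590, 0 with the last library of each mouse and 7 when only the 2 groups were fitted, and with batch as a covariate Aqp4, Sox9 and Atp1b2 had log2 fold changes of 0.46, 0.43 and 0.29 and were not called. The summed identity markers overlapped between groups, at 9760 to 11800 CPM in T41B and 9880 to 11000 CPM in WT, whereas the summed reactive genes stood at 2260 to 3230 CPM against 592 to 753 CPM. Several reactive genes, Vim, Cd44, C4b, Timp1 and Cxcl10 among them, are also made by other cells of the slice.

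Few genes of oligodendrocytes, vessels and border tissues were called. Klk6, a secreted protease of oligodendrocytes, was the 1 of 16 oligodendrocyte and myelin genes that rose, while all 16 had a positive log2 fold change (median 0.31). It was 4.87, 3.3, 4.82, 4.85 and 4.61 CPM in T41B and 0.866, 0.835 and 0.379 CPM in WT, a 6.22-fold difference (log2 fold change 2.64, SE 0.37, edgeR adjusted p = 2.28e-05). Mbp, the major myelin protein, was 3690, 3660, 2590, 3980 and 3730 CPM in T41B and 3370, 3020 and 2130 CPM in WT, with overlap (log2 fold change 0.31, SE 0.28, edgeR adjusted p = 0.579). Precursor markers gave 0 calls of 10, with Pdgfra at 62.7 ± 4.95 CPM against 58.9 ± 1.88 CPM. Icam1, an adhesion molecule that guides leukocytes and that microglia can also express, was the 1 endothelial gene of 18 to rise, at 21.3, 26.6, 39.1, 34 and 22.8 CPM in T41B and 11.8, 11.5 and 8.71 CPM in WT (log2 fold change 1.42, SE 0.22, edgeR adjusted p = 7.56e-05). The endothelial receptor Flt1 was 52.5 ± 15.4 CPM against 53.4 ± 7.1 CPM. Pericyte (0 of 11), choroid plexus (0 of 9) and fibroblast and meningeal genes (0 of 9) gave no calls, and of 8 ependymal genes 1 rose, Rarres2, whose call was lost without any WT mouse or without Mouse1592 (log2 fold change 0.72 to 0.92) and with batch as a covariate (0.75). All 8 ependymal genes had a positive log2 fold change (median 0.69), and their sum was 36 to 59.3 CPM in T41B and 25.3 to 35.7 CPM in WT.

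Genes lower in T41B slices were fewer and their changes smaller, and of the gene lists the one of GABAergic neurons had the lowest median. Of 15 GABAergic genes 3 fell and 0 rose, 14 of the 15 had a negative log2 fold change, and the median was -0.48. Sst (ENSMUSG00000004366, chromosome 16, 23889573 to 23890958, minus strand) was 37.4, 32.2, 27.6, 26.5 and 31.5 CPM in T41B and 55, 56 and 66.3 CPM in WT, so that the WT mice stood 1.9-fold higher (log2 fold change -0.93, SE 0.28, edgeR adjusted p = 0.0461). Gad2, the GABA-making enzyme of terminals, was 40.8, 42.7, 45.2, 36.2 and 39.9 CPM against 60.5, 61.4 and 60.8 CPM (log2 fold change -0.57, SE 0.14, edgeR adjusted p = 0.0125). Gad1, its isoenzyme, was 91.6, 92.9, 101, 86.6 and 95.4 CPM against 117, 119 and 135 CPM (log2 fold change -0.4, SE 0.11, edgeR adjusted p = 0.0294). All 3 genes had every T41B mouse below every WT mouse, and summed GABAergic markers were 472 to 529 CPM in T41B and 608 to 752 CPM in WT. The 3 calls became 0 without Mouse1565, without Mouse1571 or without Mouse1590 and 1 without Mouse1570, and 6 when only the 2 groups were fitted, with log2 fold changes over the mice left out of -1.01 to -0.84 for Sst, -0.61 to -0.53 for Gad2 and -0.44 to -0.34 for Gad1. Gad1 was also not called without Mouse1557, nor Sst without Mouse1564 or Mouse1592. With batch as a covariate none of the 3 was called, at -0.7 for Sst, -0.52 for Gad2 and -0.37 for Gad1. The other interneuron markers Slc32a1, Pvalb, Npy, Lhx6 and Cnr1 were not called, at -0.53, -0.53, -0.74, -0.48 and -0.55, and were chosen after their values were seen.

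Among the other lower genes, Crhbp, Dlx6os1 and Mchr1 kept their calls in each setting run. Crhbp, the binding protein of corticotropin-releasing hormone (ENSMUSG00000021680, chromosome 13, 95431371 to 95444924, minus strand), was 5.15, 5.2, 4.3, 3.12 and 4.45 CPM in T41B and 10.2, 10.1 and 11.4 CPM in WT (log2 fold change -1.24, SE 0.21, edgeR adjusted p = 0.000277). Dlx6os1, a noncoding RNA antisense to the interneuron factor Dlx6, was 7.99, 7.09, 9.54, 6.7 and 7.36 CPM against 15.7, 17 and 15.3 CPM (log2 fold change -1.05, SE 0.17, edgeR adjusted p = 0.000147). Without overlap, WT mice stood 2.36-fold higher for Crhbp and 2.06-fold higher for Dlx6os1. Gm44094 (-1.27, SE 0.31) and Dlx5, a homeobox factor of interneuron development (-1.12, SE 0.3), fell on the same stretch of chromosome 6. Gm44094 lies inside Dlx6os1 on the same strand, so its reads cannot be told apart from unspliced reads of Dlx6os1. Dlx5 overlapped between groups through Mouse1570 at 1.57 CPM and lost its call without Mouse1557, Mouse1571 or Mouse1590. Gm44094 was not called without Mouse1590, and with batch as a covariate neither was called, at -1.04 for Gm44094 and -0.77 for Dlx5. Reads of antisense genes cannot be told apart from those of the gene they overlap, since the strand setting of the counting is not given in the sources used here. Cbln4, a synapse organizer secreted by somatostatin cells, was 2.09, 1.57, 2.13, 1.1 and 1.96 CPM against 3.31, 2.87 and 7.25 CPM (log2 fold change -1.3, SE 0.35, edgeR adjusted p = 0.0209). WT Mouse1590 was far above the other WT mice, and the log2 fold change of Cbln4 was -0.79 and not called without it, and the call was also lost without Mouse1564. Of 21 tested neuropeptide and receptor genes Sst, Tac1, Crhbp and Mchr1 fell and 1 rose, Pdyn, the dynorphin precursor, at 12, 12.9, 11.2, 10.1 and 11.7 CPM against 7.18, 7.1 and 5.14 CPM (log2 fold change 0.83, SE 0.2, edgeR adjusted p = 0.0116). The call of Pdyn was lost without Mouse1590 and with batch as a covariate (0.76). The 4 falls became 6 when only the 2 groups were fitted and 2 when any of Mouse1565, Mouse1570, Mouse1571, Mouse1564, Mouse1590 or Mouse1592 was left out. Tac1 was called without Mouse1557 or Mouse1563 but not without any of the other 6 mice, nor with batch as a covariate or the first library of each mouse, with log2 fold changes of -1.45 to -1.08 over all settings.

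**Figure D3:**
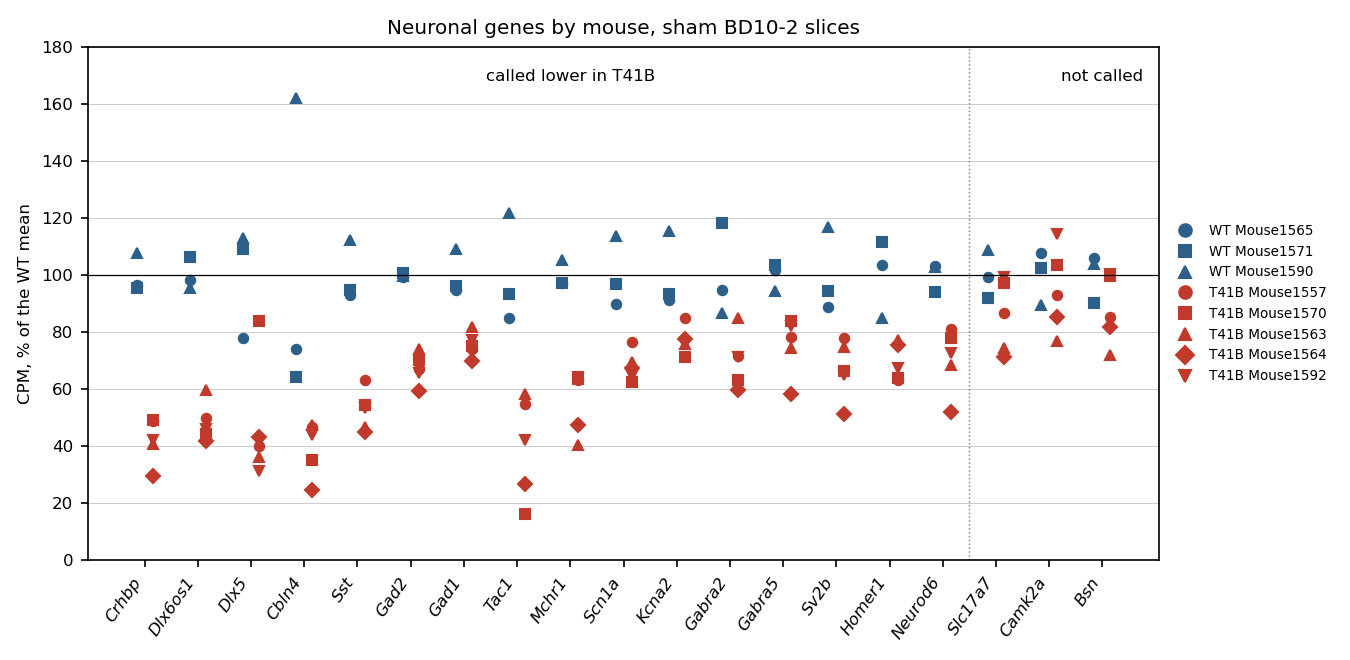
Level of 19 neuronal transcripts in each mouse as a percent of the WT mean (vertical axis, from 0), WT in blue and T41B in red, 1 marker shape per mouse. The 16 genes left of the dotted line were called lower in T41B, and the 3 at the right were not. For Dlx5 the groups overlap through Mouse1570, and for Cbln4 the WT group is spread by Mouse1590.

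Some channel and receptor genes of neurons were called lower. Of 22 voltage-gated channel genes 3 fell, Scn1a and Kcna2 among them, where 1.14% of all tested genes were called lower. That count was 1 without Mouse1590 and 8 when only the 2 groups were fitted. All 22 had a negative log2 fold change, with a median of -0.28 against 0.01 over all genes tested. In 13 of the 22 every T41B mouse lay below every WT mouse, where 7.04% of all tested genes did. Scn1a, the sodium channel of fast-spiking interneurons, was 109, 89.3, 99, 96.3 and 92 CPM against 128, 138 and 162 CPM (log2 fold change -0.55, SE 0.13, edgeR adjusted p = 0.00641), and Kcna2, an axonal potassium channel, had a log2 fold change of -0.38 (SE 0.11). The groups were apart in both genes. Scn1a was not called without Mouse1590 (-0.45), and Kcna2 lost its call without Mouse1570, Mouse1571, Mouse1563, Mouse1564, Mouse1590 or Mouse1592. Among 13 GABA receptor genes the alpha subunits Gabra2 (-0.51, SE 0.15) and Gabra5 (-0.4, SE 0.11) fell, a count of 2 that became 0 without any WT mouse or without Mouse1564 and 1 without any other T41B mouse. With batch as a covariate neither was called, at -0.49 and -0.32.

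Few genes of glutamatergic synapses were called. Of 23 genes of glutamate receptors and the postsynaptic density 1 fell, Homer1, a scaffold with an activity-induced short form, at 129, 130, 157, 154 and 137 CPM in T41B and 211, 227 and 173 CPM in WT (log2 fold change -0.53, SE 0.12, edgeR adjusted p = 0.0063). The groups did not overlap, and the call was lost without Mouse1571 (-0.44). Of these 23 genes 2 had a positive log2 fold change, the median was -0.16, and 3 were lower when only the 2 groups were fitted. Camk2a, the kinase of excitatory synapses, was 3630, 4040, 3000, 3330 and 4460 CPM against 4210, 4000 and 3500 CPM, with overlap (log2 fold change -0.08, SE 0.13). Of 22 presynaptic genes 1 fell, the vesicle protein Sv2b (-0.58, SE 0.17), which was called without Mouse1557 or Mouse1563 but not without any of the other 6 mice. The 22 also had a median of -0.16, with 4 positive values and 3 lower calls when only the 2 groups were fitted, and summed to 9170 to 9990 CPM in T41B and 10000 to 12000 CPM in WT. Slc17a7, the vesicular glutamate transporter of principal neurons, was 906 ± 134 CPM against 1060 ± 89.2 CPM (log2 fold change -0.23, SE 0.14, edgeR adjusted p = 0.4). Neurod6, a factor of pyramidal neurons, was the 1 of 15 principal neuron genes that fell, at 59.1 ± 9.56 CPM against 84.1 ± 4.39 CPM (log2 fold change -0.51, SE 0.14), and its call was lost without any WT mouse or without Mouse1564. With batch as a covariate neither Sv2b (-0.55) nor Neurod6 (-0.41) was called, and with sham slices only neither was, at -0.57 and -0.5.

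Activity-regulated genes moved in both directions. Of 25 genes, Jun, Dusp1 and Gadd45b rose and Nr4a2, Nr4a3 and Homer1 fell, and Fos, Egr1, Arc and Npas4 were not called at log2 fold changes of 0.43, 0.12, -0.35 and 0.02 and were chosen after their values were seen. Nr4a2, an inducible nuclear receptor, was 49.2, 50, 56.6, 45.4 and 38.3 CPM in T41B and 79.9, 79.3 and 73.9 CPM in WT (log2 fold change -0.7, SE 0.17, edgeR adjusted p = 0.00858). Gadd45b, a stress-induced regulator, was 53.8, 53.6, 66.9, 75.6 and 37.8 CPM against 31.9, 35.4 and 22.2 CPM (log2 fold change 0.94, SE 0.21, edgeR adjusted p = 0.00547). No mouse crossed between groups in either gene. Nr4a2 lost its call without Mouse1565 and Gadd45b without Mouse1590. With batch as a covariate Jun (0.39), Dusp1 (0.35) and Nr4a3 (-0.35) were not called. The 3 rises became 1 without Mouse1565 or Mouse1571 and 0 without Mouse1590, and the 3 falls became 1 without Mouse1565 or Mouse1571. Both counts were 5 when only the 2 groups were fitted.

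Neither receptor gene that BD10-2 is described to act on was called. Ntrk2, which encodes TrkB, was 648, 605, 686, 702 and 659 CPM in T41B and 643, 667 and 668 CPM in WT, and was not called (log2 fold change 0, SE 0.09, edgeR adjusted p = 0.998). Ntrk3, which encodes TrkC, was 350, 370, 403, 314 and 367 CPM against 450, 471 and 417 CPM (log2 fold change -0.31, SE 0.14, edgeR adjusted p = 0.235). The Ntrk2 ranges overlapped and those of Ntrk3 did not. Of 15 tested genes of neurotrophins and their receptors 1 rose, the adaptor Shc1 (0.38, SE 0.12), whose call was lost without any WT mouse or without Mouse1570, Mouse1563 or Mouse1564, and 0 fell. The count of lower genes in this list was 3 when only the 2 groups were fitted. Shc1 was also not called with batch as a covariate (0.39), DESeq2's size factors (0.38), no filter on low counts (0.36) or the last library of each mouse (0.27). Bdnf, the main TrkB ligand, was not called (-0.38, SE 0.15, edgeR adjusted p = 0.143). Ntrk3 and Bdnf were named for their role and not by the naming rule.

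Lower genes also held more transcripts of 1 class of unclear status. Protein-coding genes made up 97.3% of the higher genes but 83.9% of the lower ones, against 77.5% of all tested genes. Long intergenic noncoding RNAs were 1.35% of the lower genes against 3.03% of those tested, and antisense transcripts 0.448% against 2.66%. GENCODE's class of transcripts that still await experimental testing (TEC) gave 28 lower genes and 1 higher gene, 12.6% of the lower genes against 8.44% of those tested. Of these 28, 19 (67.9%) lay inside a protein-coding gene in the GENCODE M21 annotation, against 78.9% of all tested TEC genes. Grip1, a scaffold of AMPA receptors, held 4 of them, Gm47341, Gm47024, Gm47342 and Gm47026, on its own strand. Gm47341 was 2.24, 1.73, 3.73, 1.21 and 1.75 CPM in T41B and 4.9, 5.22 and 5.95 CPM in WT (log2 fold change -1.31, SE 0.3, edgeR adjusted p = 0.00616). Grip1 itself was 23.2, 20.2, 21.2, 17.5 and 21.6 CPM against 25.5, 22.9 and 33.4 CPM and was not called (log2 fold change -0.39, SE 0.18, edgeR adjusted p = 0.234). Gm47341 was apart between genotypes while the Grip1 ranges overlapped, and reads of a transcript inside a gene cannot be told apart from unspliced reads of that gene. Of the 19, 7 lay inside a gene that was itself lower, against 109 of the 1286 tested TEC genes whose host gene was tested, for example Gm48713 in Dgkb and Gm44663 in Prkcb, which along with Gm47342 and Grip1 were named after their values were seen. Gm48713 was called without Mouse1570 or Mouse1563 but not without any of the other 6 mice, nor with batch as a covariate (-1.11), sham slices only (-1.32), the last library of each mouse (-1.22) or no filter on low counts (-1.35). Gm47024 was called without Mouse1563 but not without any of the other 7 mice, nor with sham slices only (-1.06) or the last library (-1.05), and Gm47026 was not called without Mouse1590.

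The T41B mice differed among themselves in a way that ran across gene groups. Over the 839 higher genes, Mouse1592 was the highest T41B mouse in 35.9%, Mouse1563 in 27.7%, Mouse1564 in 26.7%, Mouse1570 in 7.99% and Mouse1557 in 1.79%. Mouse1563 was the highest in 12 of the 21 called plaque-associated genes and 6 of the 9 called cytokine genes, Mouse1592 in 12 of 15 pan-myeloid and 13 of 20 lysosomal genes, and Mouse1564 in all 6 class II genes. Mouse1570, of the shallowest library, was the lowest in 14 of the 21 plaque-associated and 16 of the 20 lysosomal genes, and Mouse1557 in 10 of the 12 class I genes. Over the 839 genes Mouse1570 was the lowest T41B mouse in 299 and Mouse1557 in 253. Mouse1557, alone in batch B, also had the lowest Thy1 level of the T41B group, 1040 CPM. Mouse1563 and Mouse1564 share batch H, so the difference between them lies within a batch. For Mouse1557, Mouse1570 and Mouse1592, each the 1 T41B mouse of its batch, batch and mouse cannot be told apart.

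**Figure D4:**
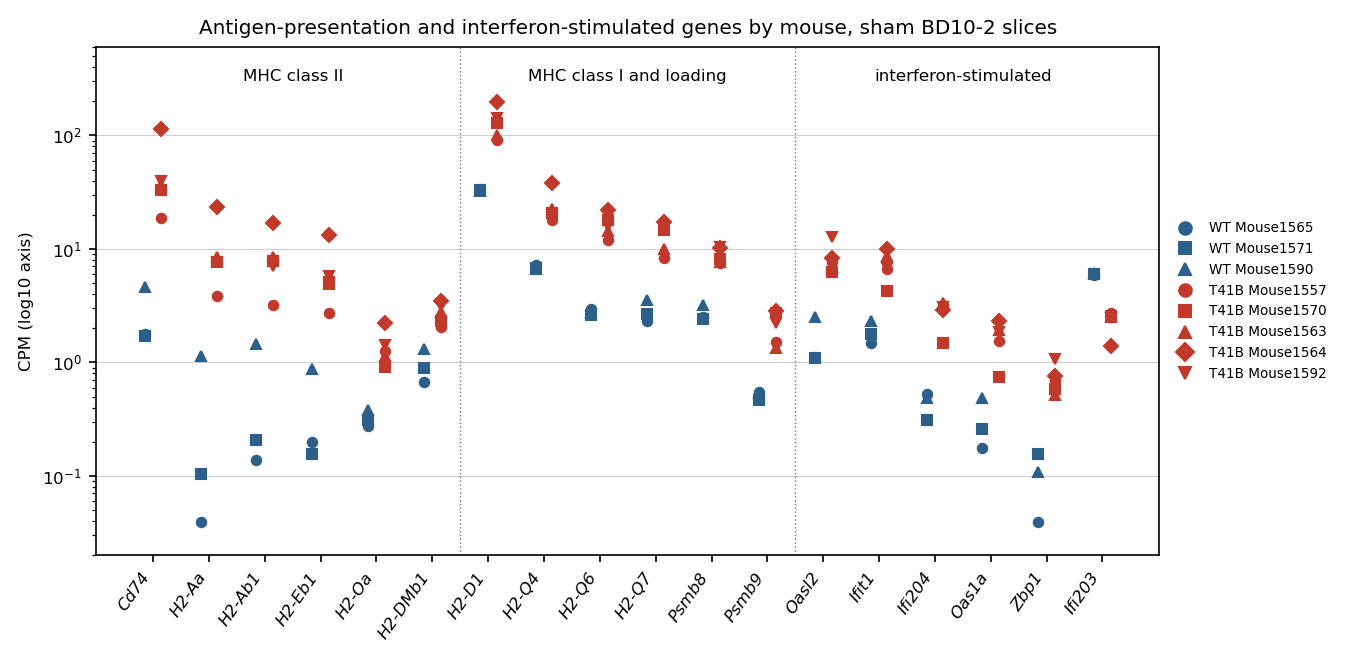
Level in CPM on a log10 axis of 6 MHC class II genes, 6 genes of MHC class I and peptide loading and 6 interferon-stimulated genes in each mouse, WT in blue and T41B in red, 1 marker shape per mouse. Mouse1564 (red diamonds) is the highest T41B mouse in every class II gene, Mouse1590 (blue triangles) is the highest WT mouse in every class II gene shown, and Ifi203 is the 1 gene with WT above T41B.

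The same genotype comparison in sham slices of vehicle-treated mice used other animals, 4 of each genotype. There 973 genes were called higher (5%) and 242 lower (1.24%). Of the 839 genes higher under BD10-2, 609 were higher under vehicle as well, which is 72.6% of the BD10-2 set and 62.6% of the vehicle set. Lower genes had 64 in common, 28.7% and 26.4% of each set. No gene was called in opposite directions, 3 of the 839 higher genes had a negative log2 fold change under vehicle, and 6 of the 223 lower genes had a positive one. Cst7 had log2 fold changes of 7.06 under BD10-2 and 6.45 under vehicle, Trem2 2.57 and 2.51, Gfap 2.18 and 2.06, and Cd74 4.22 and 4.75. Among neuronal genes, Scn1a had -0.55 and -0.57, Sst -0.93 and -0.66, and Gad2 -0.57 and -0.38, where Sst and Gad2 were not called under vehicle. Homer1 stood at -0.53 under BD10-2 and 0.05 under vehicle. Ttr, a choroid plexus transcript, averaged 141 CPM in the vehicle-treated T41B mice and reached 5.36 CPM at most in the 8 mice of the BD10-2 groups.

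A test of the difference between those genotype effects called 0 of 19478 genes (0%). edgeR gave 364 genes an unadjusted p under 0.05 and a smallest adjusted p of 1, and DESeq2 called 0 as well, with 371 genes at an unadjusted p under 0.05. A p that misses the threshold does not show that the effects were alike, and treatment cannot be told apart from batch because each batch holds 1 treatment. The 10 genes with the smallest unadjusted p, 5 in each direction, included Homer1 (difference -0.58, SE 0.17, unadjusted p = 0.00181) and the histone gene Hist1h2bm, which stood at -0.25 under BD10-2 and 1.9 under vehicle. Sat2, of the spermidine acetyltransferase family, was 4.84, 5.2, 4.56, 4.51 and 5.08 CPM in T41B and 2.99, 2.92 and 3.25 CPM in WT under BD10-2 (log2 fold change 0.66, SE 0.14, edgeR adjusted p = 0.00238), with a log2 fold change of 0.09 under vehicle. None of these differences passed the adjusted test.

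**Figure D5:**
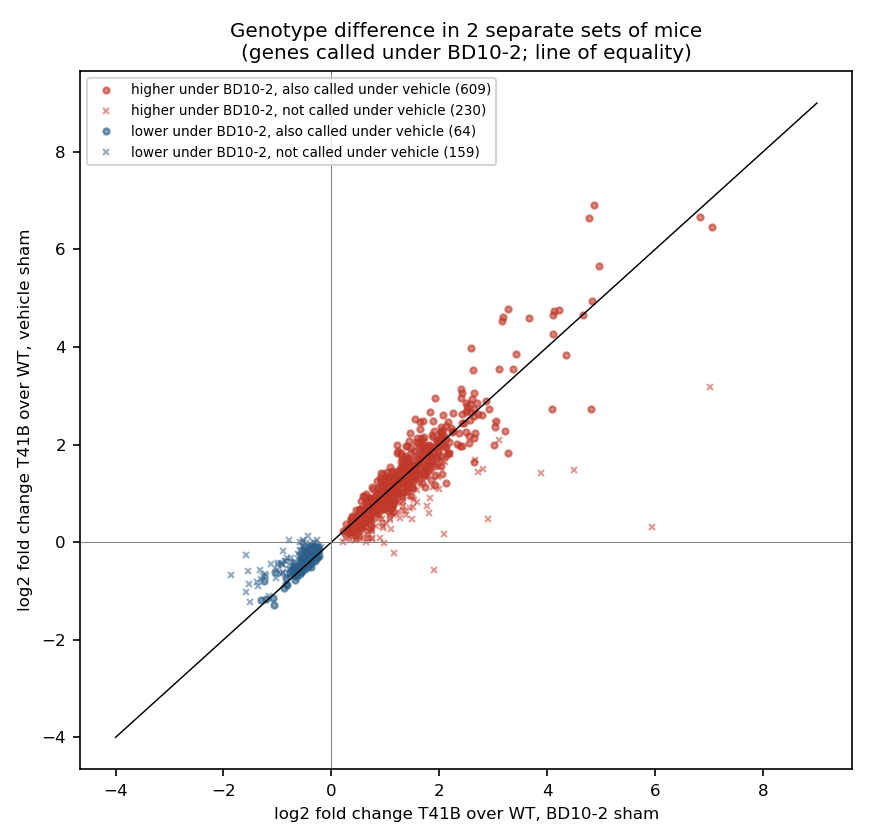
Log2 fold change of T41B over WT in sham slices under BD10-2 (horizontal) and under vehicle (vertical) for each gene called under BD10-2, red for higher and blue for lower, circles where the gene was called in the same direction under vehicle and crosses where it was not. The line marks equal values. Circles make up 609 of the 839 higher and 64 of the 223 lower genes, and horizontal values were used to choose the genes.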

How the data were processed

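RNA of mouse hippocampal slices was sequenced after ribosomal depletion with a stranded kit from 200 ng of total RNA, per the labels' protocols. The submitters' processing notes list cutadapt 1.8.1, STAR 2.7.6a, RSEM 1.3.1, featureCounts 1.6 and SAMtools 1.11 and the builds GRCm38.p6 and mm10, without their roles. The annotation release and the strand setting are not given in the sources used here. The authors deposited 1 table of RSEM expected counts, 55421 genes in 36 libraries, with decimals in 5.7% of its cells. RSEM divides reads that fit several genes, so members of multigene families are uncertain.

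Libraries of 1 mouse and stimulation label were added and rounded. All 32 such samples of 18 mice in 8 groups, with sham and stimulated slices of 1 mouse entered as separate samples, were fitted with edgeR 4.0.16 (R 4.3.3; TMM factors 0.91 to 1.063, filterByExpr with a minimum count of 10, quasi-likelihood F test, Benjamini-Hochberg adjustment over 19478 genes, threshold 0.05). The standard error is the size of the log2 fold change divided by the square root of F. CPM used TMM-adjusted library sizes, except for Prox1 in single libraries. Depth per library was 11597555 to 28125842 counts, and libraries of 1 mouse differed beyond sampling noise, in part by more than libraries of different mice. The labels name separate mice, but slices of 1 mouse with and without stimulation count as independent in the fit, so its p-values can be too small. With sham slices only, 1 sample per mouse, 964 genes were higher and 166 lower, against 839 and 223.

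Symbols came from a table of gene identifiers (55154 of 55421 matched), coordinates from GENCODE M21 (GRCm38), promoters from RefSeq (GRCm38.p6). The gene lists (49, of which 1 name found no gene) and the comparison were chosen with earlier results of these data known. Named were Thy1 and App, the 12 steepest called genes in each direction with a mean of at least 1 CPM, up to 6 called genes per list, or up to 2 abundant uncalled ones where fewer than 2 were called, 5 genes in each direction for the difference between treatments, and groups of called neighbours. Alternatives were DESeq2 1.42.0, its size factors, other filters, fewer groups, batch as a covariate, 1 library per mouse and each mouse left out. Scripts were tested on simulated data. Values of some list members are not reported here.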

Additional observations from a re-analysis of the deposited data

Results flagged for a closer look

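Within the 5 T41B mice, 1 mouse stood apart from the other 4 in 17 of 215 genes examined, by a gap of more than 0.71 of the group's range, which chance gives in about 1 in 20 groups. Mouse1564 stood apart in 4 genes of antigen presentation: H2-Aa was 23.4 CPM there against 3.81 to 8.4 CPM in the other 4, Cd74 113 against 18.8 to 39.9 CPM, H2-Eb1 13.3 against 2.71 to 5.77 CPM and H2-Q4 37.9 against 18.1 to 22.6 CPM. The same mouse had the lowest Ifi203, 1.39 against 2.44 to 2.73 CPM. Mouse1557 stood apart in immunoglobulin genes, with Igkc, the kappa light chain, at 10.1 against 0 to 0.159 CPM and Jchain, which joins immunoglobulin units, at 1.16 against 0.0825 to 0.231 CPM. Mouse1592 was highest in Pycard, an inflammasome adaptor (4.61 against 3.06 to 3.24 CPM), the oxidase subunits Ncf4 (2.75 against 1.4 to 1.79 CPM) and Ncf1 (19.2 against 11.1 to 12.2 CPM), and Inpp5d, a lipid phosphatase of myeloid cells (43.5 against 27.3 to 29.9 CPM). Mouse1570 was high in Dlx5 (1.57 against 0.583 to 0.809 CPM) and low in Ifi204 (1.48 against 2.89 to 3.32 CPM) and Klk6 (3.3 against 4.61 to 4.87 CPM). Mouse1563 was low in Mbp (2590 against 3660 to 3980 CPM) and high in Slc16a3 (5.24 against 4.23 to 4.45 CPM) and Gm16754 (0.778 against 0.33 to 0.424 CPM). The WT group of 3 mice was too small for this rule.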

How the results depend on the processing

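No paired analysis was possible because the 2 genotypes share no mouse. The 839 higher genes became 643 to 1201 under the settings that kept every mouse. The 223 lower genes became 530 when only the 2 groups were fitted, 382 with DESeq2, 346 with the first and 149 with the last library of each mouse, 166 with sham slices only and 159 without the filter on low counts. Leaving out each mouse in turn gave 429 to 795 higher and 54 to 298 lower genes, and with 3 WT mice the removal of 1 of them leaves 2. Calls were 79% higher ones here, 69.4% when only the 2 groups were fitted and 91% without Mouse1571, and DESeq2's size factors left that share at 79%. Batch as a covariate gave 671 higher and 171 lower genes, of which 628 and 114 were among the 839 and 223. Of the named genes, 35 lost their call with batch as a covariate, 33 with the last and 9 with the first library of each mouse, 9 without the filter on low counts, 8 with sham slices only, 2 with DESeq2's size factors and 1 with DESeq2. Those lost with the last library include Apoe, Mlc1, Sst, Gad1, Gabra2, Gabra5, Sv2b, Neurod6, Dusp1 and Nr4a3. No called gene that is named changed direction in any setting run. Of the named genes, 95 of 149 higher ones were called with each mouse left out in turn, and of 27 lower ones 5 were, among them Crhbp, Dlx6os1, Gm47341 and Mchr1. The difference between treatments gave 0 genes in each setting run, with 264 to 883 at an unadjusted p under 0.05, and it was not run with only the 2 groups. Genes with few counts, such as Atp6v0d2, H2-Aa and Igkc in WT mice, rest on little depth.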

Other observations

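Part of the genes near human loci of Alzheimer risk rose. Of 23 tested risk genes 11 rose and 0 fell (7 without Mouse1565), with Apoe and Trem2 among them and a median log2 fold change of 0.62. Inpp5d, the lipid phosphatase SHIP1, was 27.3, 29.9, 29.5, 27.8 and 43.5 CPM in T41B (Mouse1557, Mouse1570, Mouse1563, Mouse1564 and Mouse1592) and 15, 14.8 and 14.3 CPM in WT (Mouse1565, Mouse1571 and Mouse1590), without overlap (log2 fold change 1.1, SE 0.21, edgeR adjusted p = 0.00101). Cd33, a sialic acid receptor that dampens phagocytosis, was 12.3 ± 2.33 CPM against 6.67 ± 1.34 CPM (log2 fold change 0.89, SE 0.21) and was not called without Mouse1565 or Mouse1590 (0.78 to 1.05 over the mice left out). Bin1, Picalm and Sorl1, which act in membrane traffic and were chosen after their values were seen, had overlapping groups and log2 fold changes of 0.04, 0.02 and -0.18.

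Some genes of adhesion and of the inflammasome rose. Of 25 genes of integrins and matrix remodelling 13 rose and 1, Itga4, fell, a fall that was lost without Mouse1570, Mouse1571, Mouse1564, Mouse1590 or Mouse1592. Itga5, the fibronectin receptor chain, was 15.1, 19.4, 25.2, 22.9 and 13.1 CPM in T41B and 5.73, 5.9 and 2.92 CPM in WT (log2 fold change 1.95, SE 0.21, edgeR adjusted p = 6.49e-07). Nlrp3, the sensor of the inflammasome, was 21.7, 27.6, 29.3, 30 and 30.5 CPM against 11.1, 11.3 and 9.15 CPM (log2 fold change 1.4, SE 0.2, edgeR adjusted p = 2.35e-05). Both genes had every T41B mouse above every WT mouse. Of 14 tested inflammasome genes 6 rose, and the count was 3 without Mouse1565 or without Mouse1590. Among 16 tested cell cycle genes 3 rose, led by Top2a, a DNA topoisomerase of dividing cells, at 1.57 ± 0.256 CPM against 0.473 ± 0.0959 CPM (log2 fold change 1.65, SE 0.31, edgeR adjusted p = 0.000917), and the count was 1 without Mouse1590 and 6 when only the 2 groups were fitted.

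Called genes also stood side by side on chromosomes. Ly9, Cd48 and Cd244a, receptors of the SLAM family on chromosome 1, rose with a median log2 fold change of 2.64, Treml2, B430306N03Rik and Trem2 on chromosome 17 with 2.67, and Slfn9, Slfn8 and Slfn2 on chromosome 11 with 1.65, although the Slfn genes are similar copies. On chromosome 15 the neighbours Mchr1, a receptor for melanin-concentrating hormone, Slc25a17, a peroxisomal carrier, and St13, a cochaperone, were all lower, with a median of -0.66. St13 was 75.5, 50.7, 59.3, 54.1 and 56 CPM in T41B and 97.6, 95.6 and 87.6 CPM in WT (log2 fold change -0.66, SE 0.1, edgeR adjusted p = 5.95e-05), and no T41B mouse reached the WT range.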
